A study of Mus musculus with 7 samples.

Results

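The genes described here are 9 markers of macrophage states, chosen by symbol: Retnla for the repair state, Mrc1 for repair and resident cells, Cd163, Folr2 and Lyve1 for resident cells, Trem2, Gpnmb and Spp1 for the lipid-handling and scar-associated state, and Nos2 for the inflammatory state. They are 9 of the 56854 genes listed for every library, and all 9 were among the 17791 genes with enough counts to be tested. The libraries are messenger RNA of whole shoulder joints from 7 mice, taken 2 weeks after surgical repair of the left supraspinatus tendon, a tendon of the rotator cuff. Wild-type mice (n = 3) were compared with mice of genotype Tnc-/- (n = 4), which lack tenascin C, a glycoprotein laid down in the matrix of healing tendon. Every mouse had the repair, so the values hold no uninjured shoulder. Strain, sex, age and the construction of the Tnc allele are not given in the sources used here, and the genotype label names no Cre or cell type.

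Macrophages entering a wound are usually described by what they express. Cells activated by bacterial products and interferon make nitric oxide through Nos2, whereas cells exposed to interleukin 4 activate the transcription factor STAT6 and switch on Retnla and Mrc1. Long-lived resident macrophages carry Lyve1, Folr2 and Cd163. Cells that take up lipid and debris carry Trem2, Gpnmb and Spp1, a combination seen in fatty and scarred tissue.

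The promoters of Retnla and Spp1 are shown because they hold the STAT6 and PU.1 matches found among the state genes. RefSeq's promoter table (build GRCm38.p6) held 7 of the 9 genes. In the lines that follow, the sequence runs 5′ to 3′ on the plus strand, and capitals mark letters of the STAT6 motif (TTC, any 4 bases, GAA) or the motif GAGGAAGT of PU.1, the factor that maintains macrophage identity, on either strand. Of 4 motifs searched, these were chosen for display after the matches had been seen.
Retnla, chr16:48842359-48842550: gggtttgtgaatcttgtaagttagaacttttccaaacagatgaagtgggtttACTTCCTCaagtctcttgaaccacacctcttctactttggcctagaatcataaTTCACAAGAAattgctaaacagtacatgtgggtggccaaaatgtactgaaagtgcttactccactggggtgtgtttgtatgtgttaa
Spp1, chr5:104434861-104435110: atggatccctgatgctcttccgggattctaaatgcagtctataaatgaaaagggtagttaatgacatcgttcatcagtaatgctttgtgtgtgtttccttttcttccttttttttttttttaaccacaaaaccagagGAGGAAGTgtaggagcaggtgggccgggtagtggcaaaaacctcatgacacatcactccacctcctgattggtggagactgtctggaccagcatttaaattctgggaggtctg
The Retnla sequence begins 250 bases before the RefSeq start of the gene and holds a PU.1 match on the minus strand from 198 bases before the start and a STAT6 match from 145 bases before it. The Spp1 sequence is the 250 bases before its start, with a PU.1 match from 113 bases before it. Over all 32851 promoters in that table, 5.85% held the STAT6 letters and 2.44% the PU.1 letters in the same 250 bases, and the 2 motifs do not overlap in either sequence. The other motifs, not in capitals, were that of AP-1 (TGANTCA), matched in 1 of the 7 promoters, Trem2 from 9 bases before the start, and the E-box CATGTG of the MITF and TFE family, matched in Mrc1 from 186 and 101 bases before the start and in Retnla from 121. They were held by 6.75% and 12.3% of all promoters. A match describes the letters and shows no binding.

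The libraries were unlike in ways that touch these genes. Gene counts per library ran from 13464057 to 18503833 in wild type and from 19250322 to 28191101 in Tnc-/-, and the files of the genotypes came from different counting runs, which cannot be told apart from genotype. Tnc itself was at 437, 292 and 327 CPM (counts per 1000000) in wild type and at 33.4, 38.9, 39.9 and 55.0 CPM in Tnc-/-, which is -3.08 on the log2 scale (SE 0.21; adjusted p = 2.8e-04 by edgeR). Wild-type libraries 2 and 3 stood apart. The summed level of 2026 smell and pheromone receptor genes, which a joint should not use, was 1564 and 1113 CPM there, 89.8 CPM in wild-type library 1 and 33.3 to 41.5 CPM in Tnc-/-. Across all genes the median fold change fell with gene span, on the log2 scale from 0.29 for genes of up to 10 kb to -2.71 for genes over 300 kb. Per kb of span the receptor level gives a background to set beside each gene, and results are given with and without those libraries. Counts also went to no gene where genes overlap: of 1383 protein-coding genes with all exons inside the span of another gene, 81.0% were at 0 in all 7 libraries, against 9.64% of 12589 others. A level of 0 for such a gene is therefore no sign that it was silent.

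Macrophages were present in every library. All 10 general macrophage genes of a fixed list were detected in all 7 joints, including Csf1r, the receptor for the growth factor that keeps macrophages alive, at 149.2 to 247.5 CPM. Their summed level was 1249, 928 and 738 CPM in wild type and 1184, 1113, 1136 and 1362 CPM in Tnc-/-. The groups overlapped, and 0 of the 10 passed the edgeR test, where 29.0% of all genes did (10.3% higher and 18.7% lower in Tnc-/-). That split, 1830 higher and 3329 lower, was 992 and 4410 with library totals and 466 and 3641 scaled to the macrophage genes. The count of macrophage genes was also 0 at an unadjusted p under 0.05, which 42.3% of all genes passed. It was 0 too with DESeq2 or limma voom, which called 35.1% and 5.47% of all genes. The median log2 fold change by edgeR was 0.29. Without wild-type library 1, 7 of the 10 were higher in Tnc-/- by edgeR and the median was 0.64, in a fit that called 64.2% of all genes (24.3% higher). Without wild-type libraries 2 and 3 the count was 0 of 10 and the median -0.063, in a fit that called 4.45% of all genes. The other single omissions called 12.3% to 17.6%. Levels in whole joints cannot separate fewer macrophages from less RNA per macrophage.

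None of the 9 state genes differed between genotypes by edgeR's quasi-likelihood test: 0 of 9 had an adjusted p under 0.05, where 29.0% of all 17791 genes did. At an unadjusted p under 0.05 the count was also 0 of 9, where 42.3% of all genes passed. DESeq2 and limma voom called 0 of 9 as well. At an unadjusted p under 0.05 they passed 1 and 0, beside 7763 and 5836 of all 17791 genes. The libraries of the genotypes overlapped for all 9 genes, while they did not overlap for 35.1% of all genes. The median log2 fold change of the 9 was 0.048 beside -9.0e-04 for all genes tested, with 6 estimates above 0 and 3 below.

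**Figure D1:**
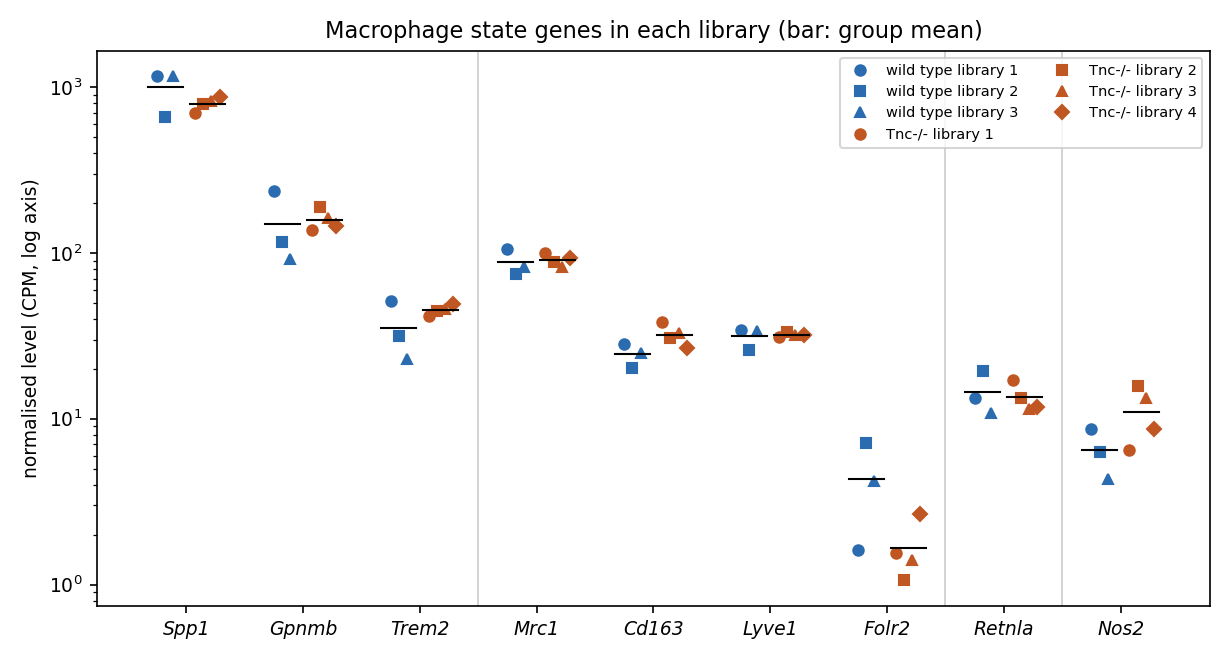
Normalised level (CPM, log axis) of each macrophage state gene in each library, wild type in blue and Tnc-/- in orange, with black bars at the group means. Lines separate the lipid-handling, resident (with Mrc1), repair and inflammatory genes. The libraries of the genotypes overlap for every gene, and Folr2 and Nos2 spread the most.

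Spp1 was the most abundant of the set. It encodes osteopontin, a secreted phosphoprotein that binds integrins and is also a product of bone and hypertrophic cartilage. Wild-type libraries 1 to 3 held 1167, 663 and 1166 CPM, and Tnc-/- libraries 1 to 4 held 695, 796, 826 and 867 CPM. Wild-type libraries 1 and 3 were the highest and wild-type library 2 the lowest of all 7. The means were 998.5 ± 291 (SD, n = 3) and 796 ± 73.3 CPM (SD, n = 4), a log2 fold change of -0.33 (95% interval -0.84 to 0.18, edgeR adjusted p = 0.299). Leaving out 1 library moved it from -0.11 (without wild-type library 1, adjusted p = 0.673) to -0.55 (without wild-type library 2, adjusted p = 0.072). Against the summed level of the general macrophage genes, Spp1 stood at 93.5%, 71.4% and 157.9% in wild type and at 58.7% to 72.7% in Tnc-/-. Scaling libraries to those macrophage genes gave a log2 fold change of -0.69 for Spp1 (edgeR adjusted p = 0.0784). There 0 of the 9 state genes passed, where 23.1% of all genes did. At an unadjusted p under 0.05, 2 of 9 passed, beside 6716 of all 17791 genes. Part of the Spp1 exons, 18.8% of bases, lies inside the span of a predicted gene, so its level may be undercounted in both groups.

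Cells other than macrophages also make Spp1. The 8 osteoblast markers summed to 1114 to 1553 CPM in wild type and 1241 to 1522 CPM in Tnc-/-. For 8 osteoclast markers the sum was 1453, 1041 and 1164 CPM in wild type and 1042 to 1311 CPM in Tnc-/-. That sum was mostly Ctsk and Mmp9. All 7 osteoclast markers tested had a fitted value below 0 (median -0.40). Of these, 4 were lower in every Tnc-/- library than in every wild-type one (Ocstamp, Dcstamp, Calcr and Oscar), as 17.4% of all genes were. Calcr passed the edgeR test (-2.00, adjusted p = 0.0309). Without wild-type libraries 2 and 3 Calcr was at -0.55, and all 7 markers stayed below 0 (median -0.50). The Calcr call was lost in each single omission but that of wild-type library 1 (adjusted p 0.0677 to 0.14), and in that omission 3 of the 7 osteoclast values were above 0 and 4 below. For 5 cartilage markers (Col10a1, Ihh, Acan, Col2a1 and Sox9) the sum was 535.6 to 1236 CPM in wild type and 578.0 to 1934 CPM in Tnc-/-. With Col10a1 at 0, that sum describes cartilage in general and not its hypertrophic part alone. The defining markers Acp5 of osteoclasts and Col10a1 of hypertrophic cartilage were listed at 0 in every library, with their exons inside other genes. The part of these cells in the Spp1 level was not tested.

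Gpnmb encodes a transmembrane glycoprotein of lysosome-rich cells, present in osteoclasts too. Its level was 237.8, 116.2 and 91.6 CPM in wild type and 138.4, 190.3, 161.7 and 145.1 CPM in Tnc-/-. Wild-type library 1 was above, and wild-type libraries 2 and 3 were below, every Tnc-/- library. The means were 148.6 ± 78.3 (SD, n = 3) and 158.9 ± 23.1 CPM (SD, n = 4), a log2 fold change of 0.096 (95% interval -0.59 to 0.78, edgeR adjusted p = 0.837).

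Trem2, a lipid-sensing receptor that signals through the adaptor Tyrobp, had the same pattern. It was at 51.4, 31.7 and 23.0 CPM in wild type and at 41.9, 44.8, 45.9 and 49.1 CPM in Tnc-/-. Here too wild-type library 1 was the highest of all and libraries 2 and 3 the lowest. The means were 35.4 ± 14.6 (SD, n = 3) and 45.4 ± 2.96 CPM (SD, n = 4), a log2 fold change of 0.36 (95% interval -0.20 to 0.92, edgeR adjusted p = 0.298). Trem2 and Gpnmb followed each other over the 7 libraries (Pearson r = 0.875), a description over libraries that share depth and composition.

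Mrc1 and Lyve1 varied least of the set, by 1.41-fold and 1.32-fold from the lowest to the highest library. Mrc1, the mannose receptor CD206, was at 105.8, 74.9 and 82.4 CPM in wild type and at 99.6, 87.6, 81.7 and 93.8 CPM in Tnc-/-, with wild-type library 1 again the highest. The means were 87.7 ± 16.1 (SD, n = 3) and 90.7 ± 7.76 CPM (SD, n = 4), a log2 fold change of 0.048 (95% interval -0.29 to 0.39, edgeR adjusted p = 0.834). That interval leaves room for a change of up to 1.31-fold.

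Lyve1, a hyaluronan receptor shared by resident macrophages and lymphatic endothelium, was at 34.3, 26.1 and 34.0 CPM in wild type and at 30.9, 33.3, 32.1 and 32.1 CPM in Tnc-/-. All 4 Tnc-/- libraries lay within the wild-type range. The means were 31.5 ± 4.68 (SD, n = 3) and 32.1 ± 0.978 CPM (SD, n = 4), a log2 fold change of 0.029 (95% interval -0.30 to 0.36, edgeR adjusted p = 0.899). The summed level of 6 lymphatic endothelium markers was 172.4, 221.9 and 239.3 CPM in wild type and 152.4 to 169.8 CPM in Tnc-/-, so those groups did not overlap. Without Reln the sums were 149.1, 135.6 and 169.4 CPM and 137.0 to 156.3 CPM, which did overlap. Of these markers 1 rose and 1 fell past the test: Flt4, a growth factor receptor, by 0.71 (edgeR adjusted p = 0.00990; 0.56 and 0.0822 without wild-type libraries 2 and 3), and the long gene Reln by -1.96 (edgeR adjusted p = 0.00877), which was -0.61 without wild-type libraries 2 and 3 (adjusted p = 0.11). Ccl21a was listed at 0 in every library, and the part of lymphatic cells in the Lyve1 level was not tested.

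Cd163, the scavenger receptor that clears haemoglobin bound to haptoglobin, was at 28.2, 20.3 and 24.8 CPM in wild type and at 38.2, 30.6, 33.1 and 26.6 CPM in Tnc-/-. Only Tnc-/- library 4 fell within the wild-type range, below wild-type library 1. The means were 24.4 ± 4.00 (SD, n = 3) and 32.1 ± 4.85 CPM (SD, n = 4), a log2 fold change of 0.39 (95% interval -0.02 to 0.81, edgeR adjusted p = 0.134). Scaled to the general macrophage genes the value was 0.059 (edgeR adjusted p = 0.887), and without wild-type libraries 2 and 3 it was 0.18 (adjusted p = 0.625).

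Folr2, a folate receptor, had the lowest level of the resident genes and the largest fitted difference of the set. It was at 1.61, 7.18 and 4.19 CPM in wild type and at 1.55, 1.06, 1.40 and 2.67 CPM in Tnc-/-, from 19 to 108 counts. Wild-type libraries 2 and 3 were the highest, and wild-type library 1 lay among the Tnc-/- libraries. The means were 4.33 ± 2.79 (SD, n = 3) and 1.67 ± 0.697 CPM (SD, n = 4), a log2 fold change of -1.37 (95% interval -2.74 to 0.0072, edgeR adjusted p = 0.12). The value was 0.048 without wild-type libraries 2 and 3, whose background set beside Folr2 came to 22.5% and 27.1% of its level. Of its exon bases, 63.1% lie inside the spans of other genes, so the level of Folr2 is uncertain.

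Retnla, the repair gene, encodes a small secreted protein of cells exposed to interleukin 4 and is also abundant in fat. It was at 13.3, 19.4 and 10.8 CPM in wild type and at 17.2, 13.4, 11.4 and 11.8 CPM in Tnc-/-, every Tnc-/- library within the wild-type range. The means were 14.5 ± 4.43 (SD, n = 3) and 13.4 ± 2.62 CPM (SD, n = 4), a log2 fold change of -0.11 (95% interval -0.72 to 0.50, edgeR adjusted p = 0.792). Summed, 6 adipocyte markers were at 213.8, 469.2 and 258.1 CPM in wild type and 284.0 to 486.9 CPM in Tnc-/-. The adipocyte sum was highest among wild-type libraries in library 2, as Retnla was. Among Tnc-/- libraries it was highest in library 3, where Retnla was lowest. The part of fat in Retnla was not tested.

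Nos2, the inducible nitric oxide synthase, was at 8.69, 6.31 and 4.31 CPM in wild type and at 6.44, 15.7, 13.4 and 8.68 CPM in Tnc-/-. Tnc-/- libraries 2 and 3 were the highest, while Tnc-/- libraries 1 and 4 lay within the wild-type range. The means were 6.44 ± 2.19 (SD, n = 3) and 11.0 ± 4.22 CPM (SD, n = 4), a log2 fold change of 0.77 (95% interval -0.15 to 1.70, edgeR adjusted p = 0.182). The background set beside Nos2 came to 58.7% and 60.4% of its level in wild-type libraries 2 and 3 and to at most 1.79% in Tnc-/-. Subtracting it gave a log2 fold change of 1.24 (edgeR adjusted p = 0.151), whereas fitting it as a covariate gave 0.18 (adjusted p = 0.906) and leaving out those 2 libraries 0.33 (adjusted p = 0.666). Nos2 is also made by neutrophils. Summed, 8 neutrophil markers were at 2708 to 5653 CPM in wild type and 6239 to 10626 CPM in Tnc-/-, with 5 of 8 higher in Tnc-/- by the test (8 of 8 without wild-type library 1, 1 to 5 over the other single omissions, 0 without wild-type libraries 2 and 3), and the part of neutrophils in Nos2 was not tested.

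A single wild-type library decided whether any of these genes was called. Without wild-type library 1, 5 of 9 passed the edgeR test, in a fit that called 64.2% of all genes (24.3% higher and 39.9% lower in Tnc-/-). Cd163 (0.60, adjusted p = 0.0122), Nos2 (1.14, adjusted p = 0.0182), Trem2 (0.83, adjusted p = 7.2e-04) and Gpnmb (0.71, adjusted p = 0.00229) were then higher in Tnc-/-, and Folr2 was lower (-1.67, adjusted p = 0.00853). The fit without wild-type libraries 2 and 3 assumed that the lone wild-type library varies like the others. Only its effect sizes are given here: Gpnmb was at -0.59, Trem2 at -0.18 and Spp1 at -0.56 on the log2 scale. With the background as a covariate 0 of 9 passed, where 2.23% of all genes were called. At an unadjusted p under 0.05, 2 of 9 passed there, beside 3287 of all 17791 genes. The background was higher in every wild-type library than in every Tnc-/- one, so that fit cannot separate it from genotype. The sign for Trem2 and Gpnmb thus depended on which wild-type libraries were used.

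**Figure D2:**
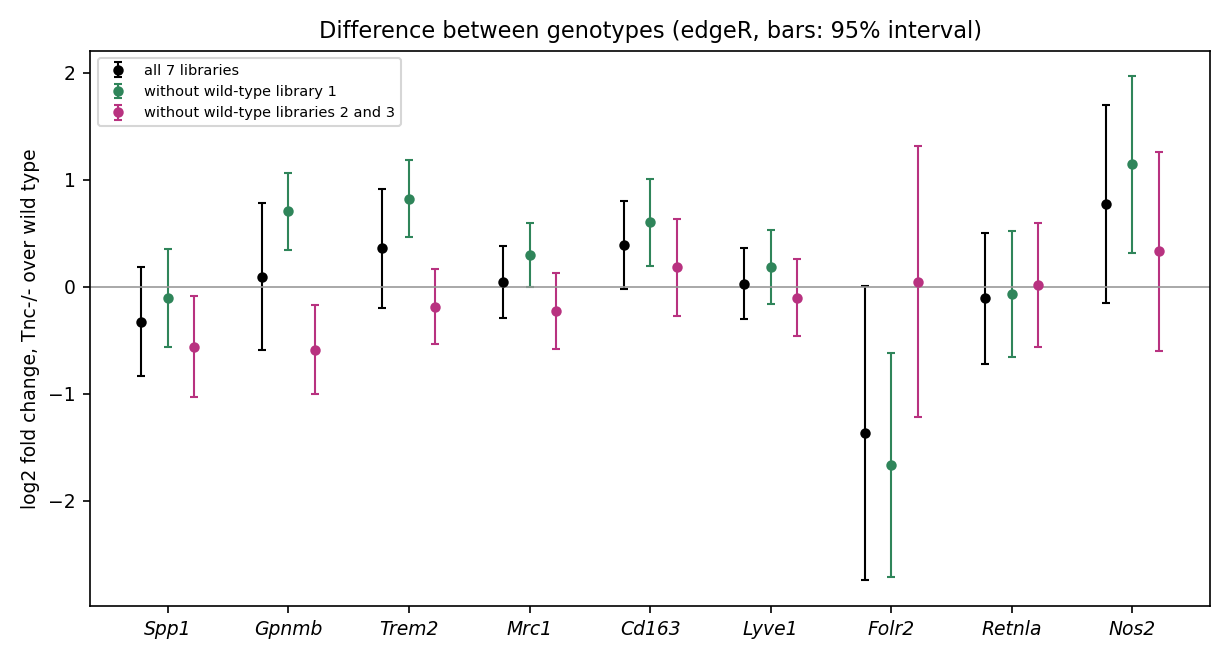
Log2 fold change, Tnc-/- over wild type, of each macrophage state gene with its 95% interval from edgeR, with all 7 libraries (black), without wild-type library 1 (green) and without wild-type libraries 2 and 3 (magenta). With all libraries every interval includes 0, and Trem2, Gpnmb and Folr2 move most between the other fits.

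The states could be compared within each joint by level per kb of exon, with all annotated exons of a gene merged. Merged length can exceed that of the transcripts present and so lower a level, as may hold for Trem2 (4.95 kb of a 7.75 kb span). Levels of Folr2 and Spp1 may be too low as well, with 63.1% and 18.8% of exon bases inside other genes. The order of genes is therefore approximate. Spp1 led at a mean of 536 CPM per kb over the 7 libraries (402 to 708). Gpnmb followed at 23.7 and Retnla at 23.2 CPM per kb, and these did not differ beyond their spread, Gpnmb being above Retnla in 4 of 7 libraries. Then came Mrc1 at 14.0, Lyve1 at 10.9, Trem2 at 8.31 and Cd163 at 5.28 CPM per kb. The range of Trem2 overlapped those of Lyve1 and Cd163, although Lyve1 was above Trem2 and Trem2 above Cd163 in all 7 libraries. Over all libraries Nos2 at 2.06 and Folr2 at 1.82 CPM per kb were the lowest. Nos2 was above Folr2 in wild-type library 1 (1.97 and 1.04 CPM per kb) and in every Tnc-/- library. Only in wild-type libraries 2 and 3 was it below. Folr2 averaged 2.80 and Nos2 1.46 CPM per kb in wild type, against 1.08 and 2.50 in Tnc-/-, and in wild-type library 2 Folr2 (4.64) was also above Cd163 (3.71). The group means of Retnla and Gpnmb also changed order, at 24.2 and 22.8 CPM per kb in wild type and 22.4 and 24.4 in Tnc-/-.

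Summed per kb, the lipid-handling genes made up 87.2% to 93.5% of the set in every library, nearly all of it Spp1. With Spp1 left aside, Trem2 and Gpnmb together held 33.1% ± 9.86 of the remaining 8 genes in wild type (SD, n = 3) and 37.0% ± 3.81 in Tnc-/- (SD, n = 4). Retnla held 28.0% ± 8.31 and 24.7% ± 3.92, the 3 resident genes 21.3% ± 5.25 and 19.8% ± 0.949, and Mrc1 15.9% ± 2.55 and 15.7% ± 1.34. Nos2 held 1.64% ± 0.231 and 2.76% ± 1.02. For each of these groups the difference in share between genotypes was within the larger SD, except for Nos2, where Tnc-/- library 1 lay within the wild-type range. The summed level of the 3 resident genes ran from 17.3 to 18.9 CPM per kb over all 7 joints. Without Folr2, which was high in wild-type libraries 2 and 3, it ran from 12.6 to 17.6 CPM per kb.

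**Figure D3:**
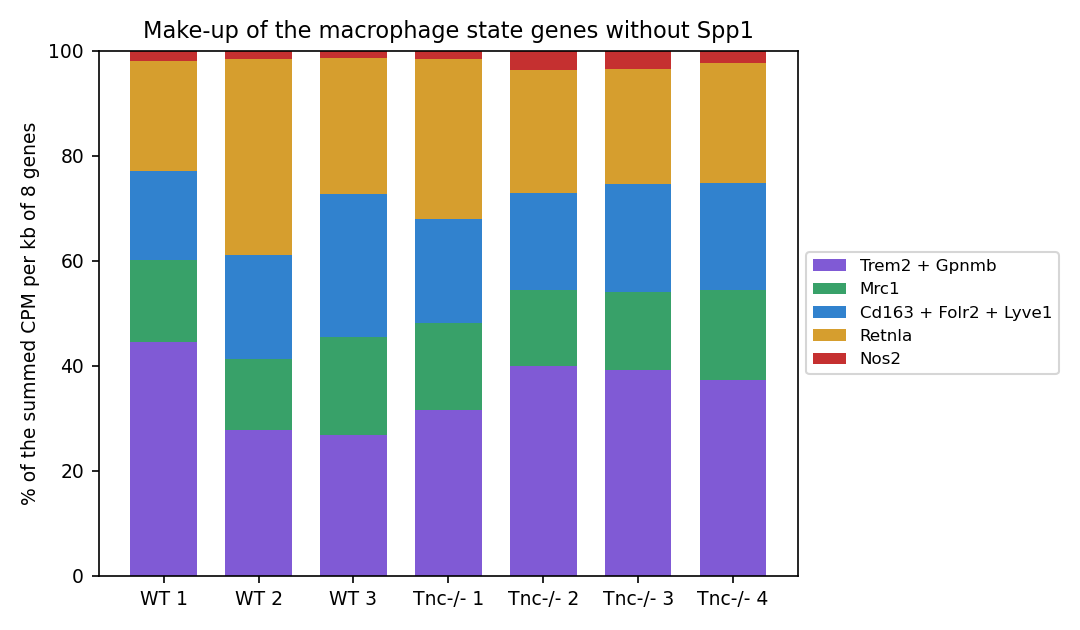
Share of each macrophage state in the summed level per kb of exon of the 8 genes other than Spp1 (percent, stacked bars), 1 bar per library. The Trem2 and Gpnmb share is widest in wild-type library 1 and narrowest in wild-type library 3, and the Nos2 share is the smallest in every library.

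Ratios between genes of the same joint gave a similar account. Mrc1 was above Nos2 in every joint, by 3.87-fold to 13.2-fold per kb. Of 9 ratios computed, chosen after the data were seen, 8 overlapped between genotypes. The exception was Cd163 over Lyve1, at a mean log2 ratio of -1.27 ± 0.086 in wild type (SD, n = 3) and -0.915 ± 0.247 in Tnc-/- (SD, n = 4). The lowest Tnc-/- ratio, in library 4, was 0.442, just above the highest wild-type ratio of 0.440, in library 1.

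The wider repair programme was read from fixed lists that hold none of the 9 genes. Of 16 tested genes of the response to interleukin 4 and STAT6, 2 rose and 1 fell, with a median log2 fold change of 0.32. In the edgeR fit as a whole 10.3% of genes rose and 18.7% fell. With limma voom 0 genes of this list or of the lipid-handling, inflammatory and arginine lists were called. The edgeR count for the interleukin 4 list without wild-type library 1 was 7 higher and 3 lower of 17 (median 0.45), over the other single omissions 0 to 1 higher and 0 to 1 lower (median 0.17 without wild-type library 3), and without wild-type libraries 2 and 3 it was 0 of 16 (median 0.069). Stat6 itself was at 101.1, 71.3 and 74.3 CPM in wild type and 111.4 to 130.5 CPM in Tnc-/-, a log2 fold change of 0.61 (edgeR adjusted p = 0.0206). Chil3, a chitinase-like protein also made by immature neutrophils, rose from a mean of 182.5 to 398 CPM, a log2 fold change of 1.12 (edgeR adjusted p = 0.0399). Pdcd1lg2, an inhibitory ligand for T cells, was lower by -4.65 on the log2 scale (edgeR adjusted p = 0.0233), from 0.751, 8.77 and 4.62 CPM in wild type, where libraries 2 and 3 held most of its counts. The call on Stat6 was lost without wild-type 2 or 3, or Tnc-/- 1, 3 or 4 (adjusted p 0.0558 to 0.0879), where its log2 fold change was 0.52 to 0.59. That on Chil3 was lost without any library but wild-type library 1 (0.0536 to 0.139), at 0.83 to 1.25, and that on Pdcd1lg2 without wild-type 2 or 3, or Tnc-/- 2 or 3 (0.0707 to 0.0812), at -4.65 to -3.83.

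Around Trem2, Gpnmb and Spp1, 5 of 18 lipid-handling genes rose and 0 fell by the edgeR test, with a median log2 fold change of 0.32. Among all genes 10.3% rose and 18.7% fell. At an unadjusted p under 0.05 the lipid-handling genes below 0 also numbered 0. With library totals 2 rose and 1 fell, and scaled to the general macrophage genes 2 rose and 0 fell. The count without wild-type library 1 was 13 higher (median 0.64), over the other single omissions 1 to 3, and without wild-type libraries 2 and 3 it was 0 (median -0.038). Cd5l, a secreted protein of lipid-laden macrophages, was at 10.4, 8.44 and 10.1 CPM in wild type and 31.8, 16.4, 24.6 and 18.6 CPM in Tnc-/-, a log2 fold change of 1.25 (edgeR adjusted p = 0.0113). Every Tnc-/- library was above every wild-type one, and the call held when any single library was left out. Syk, the kinase downstream of Tyrobp, rose by 1.15 (edgeR adjusted p = 0.0184) and Plin2, which coats lipid droplets, by 0.51 (edgeR adjusted p = 0.0355). The other risers, named after their values were seen, were the signalling adaptors Tyrobp (0.84, adjusted p = 0.0377) and Hcst (1.18, adjusted p = 0.0365), so the Trem2 adaptor passed the test and Trem2 did not, a difference between them that was not itself tested. Syk, Tyrobp and Hcst are expressed in neutrophils too, and the part of the higher neutrophil markers was not tested. The call on Syk was lost without wild-type 3, or Tnc-/- 1 or 3 (adjusted p 0.0554 to 0.081), where its log2 fold change was 1.003 to 1.11. Those on Plin2 and Tyrobp were lost without any library but wild-type library 1 (0.0688 to 0.122 and 0.0545 to 0.124), at 0.40 to 0.53 and 0.62 to 0.93, and that on Hcst without wild-type 2 or 3, or Tnc-/- 1, 3 or 4 (0.0786 to 0.127), at 0.97 to 1.21.

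Beside Cd163, Folr2 and Lyve1, 2 of 18 resident genes rose and 2 fell, with a median log2 fold change of 0.098. Scaled to the general macrophage genes 0 rose and 4 fell, where 466 and 3641 of all genes did. With library totals 2 rose and 4 fell, where 992 and 4410 of all genes did. With limma voom 1 was called higher (Pf4, adjusted p = 0.0456) and 0 lower. By edgeR without wild-type library 1 these were 4 and 2, over the other single omissions 0 to 2 and 1 to 3, and without wild-type libraries 2 and 3, 1 and 1. Pf4, a chemokine of resident macrophages and platelets, was at 115.6, 85.3 and 88.6 CPM in wild type and 136.3 to 215.2 CPM in Tnc-/-, a log2 fold change of 0.83 (edgeR adjusted p = 0.0138). The scavenger receptor Stab1, named after its values were seen, rose by 0.65 (edgeR adjusted p = 0.0228). Cx3cr1, the fractalkine receptor, fell by 0.79 on the log2 scale (edgeR adjusted p = 0.0147), from 27.5, 35.6 and 31.4 CPM to between 15.7 and 22.6 CPM. It is a long gene of 168 kb, and all tested genes of 100 to 300 kb had a median of -0.69, with 48.9% called. Marco, a scavenger receptor, was at 0.590, 15.7 and 8.38 CPM in wild type and 0.280 to 0.555 CPM in Tnc-/- (edgeR adjusted p = 0.0120), so that its fitted log2 fold change of -4.24 came from wild-type libraries 2 and 3 and was -0.46 without them (adjusted p = 0.801). The call on Pf4 was lost without wild-type library 2 or 3 (adjusted p 0.0519 to 0.066), where its log2 fold change was 0.75 to 0.78. That on Cx3cr1 was lost without wild-type 3, or Tnc-/- 3 (0.0535 to 0.0548), at -0.79 to -0.73, and that on Stab1 without any library but wild-type library 1 (0.050 to 0.0874), at 0.52 to 0.67.

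With Nos2, the inflammatory genes gave 2 risers and 1 faller among 17 tested, with a median log2 fold change of 0.32. Without wild-type library 1 these were 9 and 4, over the other single omissions 0 to 2 and 0, and without wild-type libraries 2 and 3, 0 and 0. Ly6c2, a surface protein of newly arrived monocytes, was at 106.1, 60.7 and 56.7 CPM in wild type and 115.8 to 202.4 CPM in Tnc-/-, a log2 fold change of 1.05 (edgeR adjusted p = 0.0240). Il1b, an inflammatory cytokine made by monocytes and neutrophils, was at 6.12, 4.59 and 2.85 CPM and at 11.6, 11.1, 14.5 and 7.11 CPM, a log2 fold change of 1.29 (edgeR adjusted p = 0.0375). Both stood above every wild-type library in all 4 Tnc-/- joints. The summed neutrophil markers did so too, and the part of neutrophils in Ly6c2 and Il1b was not tested. Il12b, a subunit of interleukins 12 and 23, was lower by -3.62 (edgeR adjusted p = 0.0227) and by -0.82 without wild-type libraries 2 and 3 (adjusted p = 0.714). The call on Ly6c2 was lost without wild-type 2 or 3, or Tnc-/- 1 or 3 (adjusted p 0.0691 to 0.104), where its log2 fold change was 0.87 to 0.99. Those on Il1b and Il12b were lost without wild-type 2 or 3, or Tnc-/- 1, 2 or 3 (0.077 to 0.124 and 0.0586 to 0.0999), at 1.05 to 1.31 and -3.55 to -2.91. Without Tnc-/- library 4 Il12b had too few counts to be tested. Cxcl10 and Fpr2 were listed at 0 in all libraries, with nearly all of their exon bases inside other genes.

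Of 15 tested genes that handle arginine and nitric oxide, around Nos2, 1 rose and 0 fell by edgeR, with a median log2 fold change of -0.0099. At an unadjusted p under 0.05, 4 were higher and 2 lower, where 42.3% of all genes passed in either direction. By edgeR without wild-type library 1, 5 rose and 2 fell, in each other single omission 0 did either, and without wild-type libraries 2 and 3, 1 rose. Gch1, which makes the cofactor that nitric oxide synthases need, was at 25.7, 15.4 and 14.0 CPM in wild type and 40.5, 28.0, 37.3 and 28.4 CPM in Tnc-/-. Every Tnc-/- library was above every wild-type one, with a log2 fold change of 0.87 (edgeR adjusted p = 0.0338). The call was lost without any library but wild-type library 1 (adjusted p 0.0548 to 0.125), where its log2 fold change was 0.71 to 0.94.

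Without wild-type libraries 2 and 3 none of the genes named from these lists as risen or fallen kept its call. Cd5l was then at 1.14 on the log2 scale (edgeR adjusted p = 0.0777), Hcst at 0.99 (0.136), Il1b at 0.85 (0.17), Cx3cr1 at -0.60 (0.131) and Pf4 at 0.56 (0.158). Syk was at 0.63, Ly6c2 at 0.53, Chil3 at 0.51, Gch1 at 0.38, Stab1 at 0.35, Stat6 at 0.30, Tyrobp at 0.29, Plin2 at 0.22 and Pdcd1lg2 at -2.03. Scaled to the general macrophage genes, where the median of all genes was -0.35, the median log2 fold changes were 0.053 for the interleukin 4 list, 0.015 for the lipid-handling, -0.24 for the resident, -0.024 for the inflammatory and -0.37 for the arginine list. With library totals, where it was -0.22, they were 0.12, 0.11, -0.12, 0.10 and -0.24.

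The genes most like each member over the 7 libraries were sought by Pearson r of log2 levels among genes whose mean reached 5 CPM. Trem2 was closest to Wipi1 (r = 0.993) and Tmem101 (0.992), Gpnmb to Prune1 (0.983) and Tigd2 (0.982), and Spp1 to Cd302 (0.992) and Cd200 (0.983). Mrc1 was closest to Rps4x (0.982) and Pigx (0.979), Lyve1 to Timm9 (0.997) and Rap1gds1 (0.981), and Folr2 to Parp8 (0.988) and Cops7b (0.985). Cd163 was closest to Tmpo (0.993) and Epb42 (0.985), the latter a protein of the red cell membrane. Epb42 was at 36.8, 11.0 and 23.0 CPM in wild type and 90.8, 43.0, 61.5 and 37.7 CPM in Tnc-/-. Nos2 was closest to Phkg1 (0.985) and Adssl1 (0.983), both enzymes abundant in skeletal muscle. Summed, 6 muscle markers were at 19611 to 25972 CPM in wild type and 26944 to 40321 CPM in Tnc-/-. Retnla was closest to Leo1 (0.971) and Psmd5 (0.949). These are likenesses over 7 libraries that share depth and tissue make-up, and no test was made of them.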

How the data were processed

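The values analysed are raw read counts per gene, deposited by the authors as 1 file per library. The submitters' processing notes name FastQC 0.11.9, HISAT2 2.2.1, HTSeq 2.0.2 and DESeq2 1.38.3 with builds GRCm39 and mm39; the annotation release is not given in the sources used here. Rows that name no gene were listed only for Tnc-/- (30.1% to 32.7% of reads there) and were left out. Groups follow the genotype label of each sample. The 56854 identifiers in every file were used; 126 occurred only in wild-type files and 87 only in Tnc-/- files.

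Genotypes were compared with edgeR 4.0.16 in R 4.3.3 (default filterByExpr, TMM scaling, robust quasi-likelihood test, Benjamini-Hochberg adjustment over all 17791 tested genes, threshold 0.05). The procedure was checked on simulated data drawn from a shared mean profile. Those held no background and no unlike wild-type libraries, so the check does not bear on either. CPM are counts per 1000000 of the TMM-scaled library total; log2 fold changes are Tnc-/- over wild type. Every adjusted p is from edgeR unless another tool is named. Gene spans, exon lengths and overlaps came from GENCODE M21 on GRCm38, not the build of the files, so no gene coordinates are given apart from the RefSeq promoters. Likeness used log2(CPM + 0.5). Background per library is the summed level of the receptor genes divided by their summed span. The covariate was the log2 of that summed level, which was higher in every wild-type library than in every Tnc-/- one.

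All 9 members described are named (1 other gene the rule selects is not reported here), with at most 3 called genes from each other list by smallest p; further names are marked. The members and lists were chosen with earlier results of these data known. Alternatives were DESeq2 1.42.0, limma 3.58.1 voom, Bonferroni adjustment, other scalings and filters, background as a covariate, and omission of libraries. Subtracting background and fitting only genes of up to 10 kb were chosen after seeing the data.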

Additional observations from a re-analysis of the deposited data

How the results depend on the processing

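No member was called in any fit except that without wild-type library 1; over the 7 fits that each leave out 1 library, 0 to 5 members and 2229 to 14113 genes were called, beside 0 and 5159 in the fit reported. Counts of genes called were 973 with limma voom, 22 with Bonferroni adjustment, 397 with background as a covariate, 825 without wild-type libraries 2 and 3, 3356 with background subtracted, 626 among genes of up to 10 kb and 1713 with the replicate block, and they stayed within 1.5 times the reported count in the other fits of all libraries. Replicate numbers did not pair the samples (correlations of deviations -0.00531, 0.102 and -0.00549), and with the replicate block, which called 1713 genes, 0 members were called. No fit in which a sign changed called that member. With library totals the log2 fold changes were -0.16 for Mrc1, -0.10 for Gpnmb and -0.19 for Lyve1, where the median of all genes was -0.22; scaled to macrophage genes they were -0.28, -0.13 and -0.33, where it was -0.35. Lyve1 was at -0.014 with DESeq2 and -0.013 with its size factors, and Mrc1 and Lyve1 at -0.019 and -0.038 with upper-quartile scaling and -0.028 and -0.049 with at least 10 counts in every library. With background as a covariate Mrc1 was at -0.36, Trem2 -0.43, Gpnmb -0.90, Folr2 0.60, Lyve1 -0.19 and Retnla 0.18; without wild-type libraries 2 and 3 these were -0.23, -0.18, -0.59, 0.048, -0.10 and 0.019. With background subtracted Mrc1 was at -0.016, Gpnmb -0.023 and Lyve1 -0.11. Leaving out 1 library moved Mrc1 from -0.050 to 0.30, Gpnmb from -0.15 to 0.71, Lyve1 from -0.086 to 0.19 and Retnla from -0.27 to 0.16. Apart from the omissions of libraries, the cause of these shifts was not tested. With 19 to 108 counts per library, depth limits Folr2 most.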
